A study of Mus musculus with 79 samples.

Results

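T+ cells and Sox2+ cells, the single-positive ends of a flow cytometry sort of the caudal end of wild-type mouse embryos, were compared gene by gene. A gene entered the comparison when it had at least 5 FPKM (fragments per kilobase of transcript and per M mapped fragments) in T+ or in Sox2+ cells, which 8706 of 23983 gene symbols had. Leaving out small RNAs, mitochondrial genes, pseudogenes of ribosomal proteins, unnamed gene models, joined symbols and T and Sox2 themselves, 8388 genes were compared. Each fraction is 1 library, so no p-value can be given, and every difference below describes these 2 libraries of the 79 samples in the series.

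The T+, T+ Sox2+ and Sox2+ fractions came from wild-type (WT) embryos labelled Theiler stage 12 (TS12), strain C57BL/6N. All embryos were derived from cultured embryonic stem cells through tetraploid complementation, and caudal ends were pooled before sorting. RNA of about 2500 sorted cells was extracted, and the equivalent of about 1000 cells went into each library. How T and Sox2 were detected in the sort is not given in the sources used here. T+ cells of WT (C57BL/6N) and T knockout embryos (T KO, labelled T2J/2J and C57BL/6J) at TS12 and TS13 were sorted for another table, called the knockout table here, and 53 single T+ Sox2+ cells of WT embryos (C57BL/6N) were taken at TS13.

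At this stage the body grows from its tail end, where neuro-mesodermal progenitors, cells that express T and Sox2 together, feed both the spinal cord and the paraxial mesoderm. T (Brachyury) is a T-box transcription factor required for posterior mesoderm. Sox2 is a SoxB1 factor of neural and stem cells. Wnt and FGF signals keep the progenitors, Tbx6 and Msgn1 mark their passage into presomitic mesoderm, and retinoic acid favours neural differentiation and somite formation.

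The fractions were first read for the genes they were sorted on. Sox2 mRNA was at 2.82 FPKM in T+ cells, 16.4 FPKM in T+ Sox2+ cells and 50.5 FPKM in Sox2+ cells, an order that fits the labels. T mRNA was at 141 FPKM in T+ cells, 341 FPKM in T+ Sox2+ cells and 192 FPKM in Sox2+ cells. T mRNA thus goes against the labels: the fraction labelled Sox2+ alone held more of it than the fraction labelled T+. The names T+ and Sox2+ are kept below as names of the sort. In WT T+ cells of the knockout table at TS12 the percentile rank of T within its library was 91.2, against 96.4 in the T+ fraction and 97.6 in the Sox2+ fraction. The rank of Sox2 was 53.8 in those WT T+ cells, 21.3 in the T+ fraction and 87.8 in the Sox2+ fraction, so the WT T+ library of the other table held Sox2 at a rank between the ends of the sort.

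Markers of other cell types showed that the T+ library stood apart in blood. The summed level of 8 red blood cell markers was 12036 FPKM in T+ cells, 112 FPKM in T+ Sox2+ cells and 231 FPKM in Sox2+ cells, 52.1-fold higher in T+ cells, and all 8 were at least 2-fold higher in T+ cells. Globin genes took 3.52% of the summed FPKM of the T+ library and 0.0360% of that of the T+ Sox2+ library and 0.0650% of that of the Sox2+ library. Endothelium markers summed to 44.5 FPKM in T+ cells and 3.25 FPKM in Sox2+ cells. Markers of lateral and intermediate mesoderm summed to 144 FPKM in T+ cells and 9.46 FPKM in Sox2+ cells, and those of presomitic mesoderm to 404 FPKM in T+ cells and 115 FPKM in Sox2+ cells. Neural markers summed to 5.63 FPKM in T+ cells and 79.8 FPKM in Sox2+ cells, and caudal progenitor markers to 78.0 FPKM in T+ cells and 398 FPKM in Sox2+ cells. White blood cell markers summed to 0.0626 FPKM in T+ cells, with Ptprc, Aif1, Tyrobp and Lyz2 at 0, and to 0.294 FPKM in Sox2+ cells. Markers of notochord and node, endoderm and surface ectoderm summed to 8.35 FPKM or less in each of T+ and Sox2+ cells. In pooled sorted cells, fewer cells of a type and less of its RNA per cell cannot be told apart.

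Of the 8388 genes, 307 (3.66%) had a level 2-fold or more above that of Sox2+ cells in T+ cells and 272 (3.24%) 2-fold or more below, where 2-fold is a difference of 1 between log2(FPKM + 1) values. The differences given below are all on this scale, T+ minus Sox2+, and they understate the change of low genes. The other 7809 genes lay within 2-fold, the median difference was 0.01 and the central 95% of genes ran from -1.23 to 1.37. A gene that reached the minimum through 1 fraction only lay below it in the other. This favours differences, so the counts in gene lists below are descriptions. At 8-fold or more, 48 genes were higher and 21 lower, so the larger differences were more often on the side of T+ cells. Without the red blood cell and vessel lists 271 higher genes were left. At the minimum level Lcmt2 lay just inside with 5.00 FPKM in T+ cells, and Lyl1, at 4.9996 FPKM in T+ cells and 0.155 FPKM in Sox2+ cells, lay just outside. Nfatc4 and Pkp2 lay just inside the 2-fold limits, at 1.002 and -1.004, and Tmem150a and the caudal homeobox gene Cdx4 just outside, at 0.999 and -0.997. Estimated depth was 28.9 M fragments in T+ cells and 28.6 M in Sox2+ cells, at which a gene of 1 kb at 5 FPKM rests on 144 fragments in T+ cells and 143 in Sox2+ cells and has a counting error of 8.32% in T+ cells and 8.37% in Sox2+ cells. Differences between embryos, sorts or amplifications are not in that error.

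**Figure D1:**
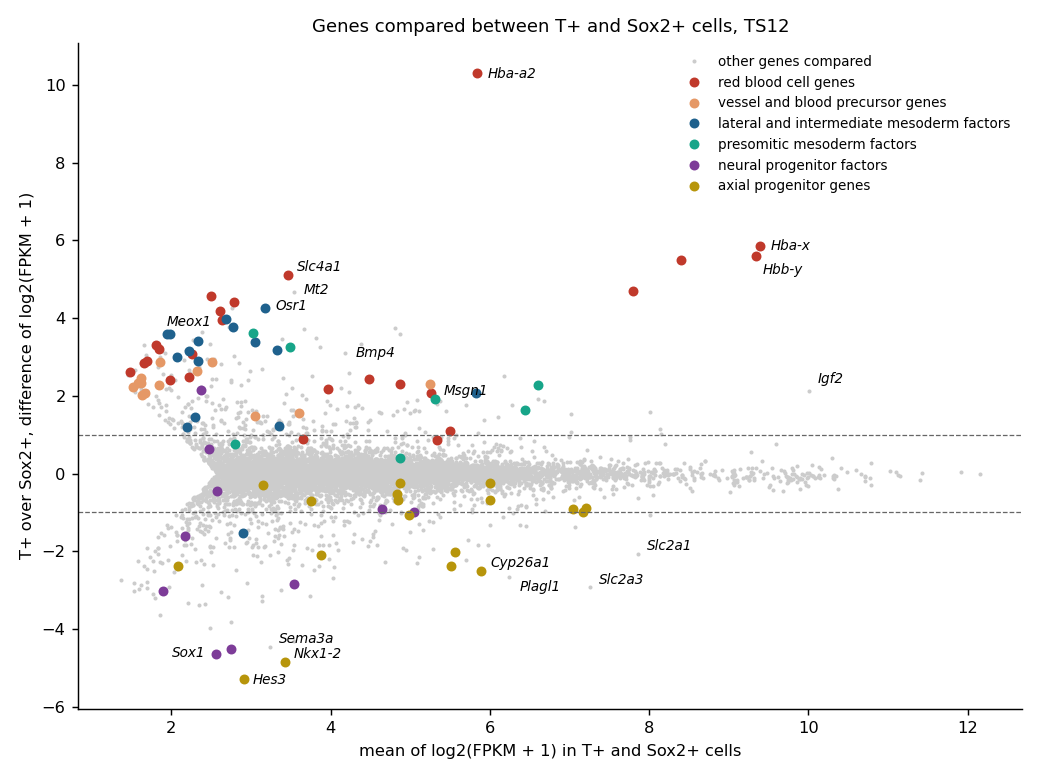
Difference of log2(FPKM + 1), T+ over Sox2+ cells, against the mean of log2(FPKM + 1) in both libraries, 1 point per gene compared, with members of 6 gene lists in colour (a gene on several lists has the colour of the first in the legend) and dashed lines at 2-fold. Red blood cell genes, up to 10.31 for Hba-a2, lie above nearly all others, and Hes3, at -5.27, is the lowest gene.

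Presomitic mesoderm factors were higher in T+ cells: 5 of 7 compared were 2-fold or more higher and none lower, and the median difference was 1.93 beside 0.01 for all genes. Tbx6, the T-box factor that commits cells to paraxial mesoderm, was at 152 FPKM in T+ cells, 173 FPKM in T+ Sox2+ cells and 47.9 FPKM in Sox2+ cells (difference 1.65). The bHLH factor Msgn1, which drives presomitic differentiation, had 76.5 FPKM in T+ cells, 112 FPKM in T+ Sox2+ cells and 19.3 FPKM in Sox2+ cells (1.93). These early factors were thus as high or higher in the double-positive cells as in T+ cells. The forkhead factors Foxc1 and Foxc2, which act in the anterior presomitic mesoderm and somites, were highest in T+ cells. Foxc1 was at 33.7 FPKM in T+ cells, 19.8 FPKM in T+ Sox2+ cells and 2.65 FPKM in Sox2+ cells (3.25), and Foxc2 at 27.5 FPKM in T+ cells, 12.1 FPKM in T+ Sox2+ cells and 1.32 FPKM in Sox2+ cells (3.62). Cited1, a transcriptional coactivator, was at 214 FPKM in T+ cells, 165 FPKM in T+ Sox2+ cells and 43.2 FPKM in Sox2+ cells (2.28). Hes7, the oscillating repressor of the segmentation clock, and the streak homeobox factor Mixl1 lay within 2-fold (0.41 and 0.75).

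The promoter of Msgn1 is shown because Wnt signalling through Tcf/Lef factors is known to act on it. It is RefSeq sequence of build GRCm38.p6 (chr12:11208899-11209198, minus strand), from 250 bases before to 50 after the gene's start, with capitals at each CTTTGA, the core of the Tcf/Lef motif, on either strand.
Msgn1: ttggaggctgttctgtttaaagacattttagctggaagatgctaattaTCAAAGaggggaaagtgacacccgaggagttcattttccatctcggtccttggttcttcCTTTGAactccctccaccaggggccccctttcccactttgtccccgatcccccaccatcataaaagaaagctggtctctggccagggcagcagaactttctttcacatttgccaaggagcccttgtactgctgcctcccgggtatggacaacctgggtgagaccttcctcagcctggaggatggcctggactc
The motif stood in 11.4% of the promoters of all genes compared and in 16.2% of all promoters in the table, and in 14.9% of those of genes higher and 11.3% of those of genes lower in T+ cells. A match describes the letters in this window only.

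Somite factors were also higher in T+ cells in most members: of 5 compared, 4 were 2-fold or more higher and 1 lower. Meox1, a homeobox factor of the somites, was at 28.6 FPKM in T+ cells, 12.5 FPKM in T+ Sox2+ cells and 0.555 FPKM in Sox2+ cells (4.25). Eya1, a transcriptional coactivator of early mesoderm and placodes, differed by 3.16, and Tcf15 (Paraxis), which makes somites epithelial, by 2.00. Pax3, which marks both the dorsal neural tube and the somite, was the member on the other side: 1.99 FPKM in T+ cells, 7.17 FPKM in T+ Sox2+ cells and 9.97 FPKM in Sox2+ cells (-1.88). With no minimum level the median of somite factors was 0.14, since most members were then near 0 in both fractions.

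Lateral and intermediate mesoderm factors made the largest group of transcription factors on the T+ side. Of 16 compared, 15 were at least 2-fold higher in T+ cells and 1 lower, and the median was 3.17. Osr1, a factor of intermediate and lateral mesoderm, was at 38.5 FPKM in T+ cells, 4.38 FPKM in T+ Sox2+ cells and 1.06 FPKM in Sox2+ cells (4.26). Pitx1, the homeobox factor of hindlimb mesoderm, was at 24.6 FPKM in T+ cells, 2.39 FPKM in T+ Sox2+ cells and 0.615 FPKM in Sox2+ cells (3.99), and Foxf1, of splanchnic mesoderm, at 24.4 FPKM in T+ cells, 3.29 FPKM in T+ Sox2+ cells and 0.851 FPKM in Sox2+ cells (3.78). Unlike Tbx6 and Msgn1, these genes were low in the T+ Sox2+ library. Single T+ Sox2+ cells of TS13 did not show this order. Foxf1 reached 1 FPKM in 46 of 53 cells, Osr1 in 34 and Pitx1 in 21, against 46 for Tbx6 and 15 for Msgn1. Tbx4, a T-box factor of hindlimb and allantois, was at 12.8 FPKM in T+ cells, 1.78 FPKM in T+ Sox2+ cells and 0.139 FPKM in Sox2+ cells (3.60), and Hand2, a bHLH factor of lateral mesoderm, at 12.3 FPKM in T+ cells, 1.15 FPKM in T+ Sox2+ cells and 0.110 FPKM in Sox2+ cells (3.59). Irx3, a homeobox factor of intermediate mesoderm and of the neural tube, was lower in T+ cells, at 3.38 FPKM against 11.7 FPKM in Sox2+ cells (-1.54). Of the T-box factors compared, Tbx3 (2.90), Tbx4 and Tbx6 were higher and Mga, a widely expressed T-box and Max partner, differed by 0.14. Genes of the allantois and extraembryonic mesoderm included the same factors and Bmp4, and 7 of 10 were higher, with a median of 2.57; Phlda2, an imprinted growth restrictor of the placenta, was at 46.2 FPKM in T+ cells, 17.3 FPKM in T+ Sox2+ cells and 3.18 FPKM in Sox2+ cells (3.50). Cdx2 was the 1 allantois gene lower in T+ cells.

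**Figure D2:**
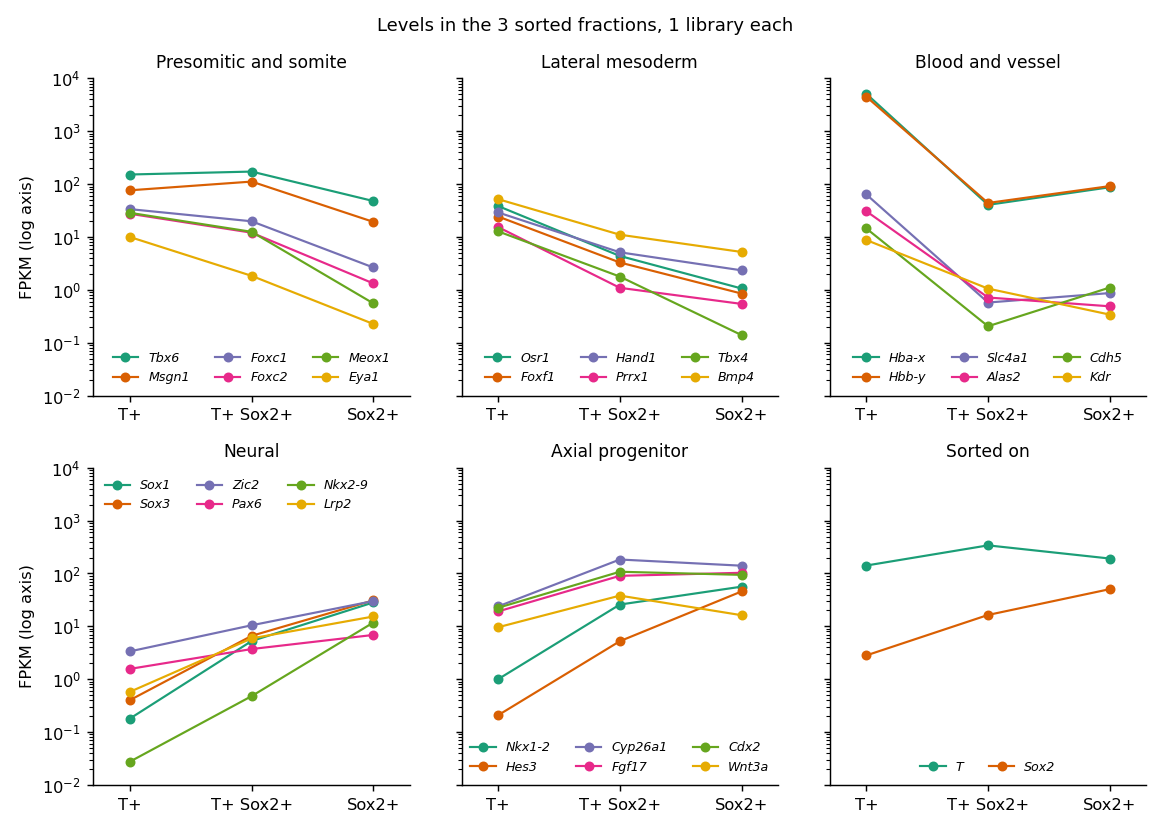
FPKM on a log axis in T+, T+ Sox2+ and Sox2+ cells, 1 library each, for genes of 5 groups and for T and Sox2, with 1 line per gene. Tbx6 and Msgn1 are highest in T+ Sox2+ cells (173 and 112 FPKM), Foxf1 and Osr1 in T+ cells, and Sox1 and Sox3 in Sox2+ cells.

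Red blood cell genes were higher in T+ cells, with 23 of 25 past 2-fold upwards, none lower and a median of 3.06. Hba-x, the embryonic alpha-like globin, was at 5119 FPKM in T+ cells, 40.6 FPKM in T+ Sox2+ cells and 87.3 FPKM in Sox2+ cells (5.86). Hbb-y and Hbb-bh1, embryonic beta-like globins, differed by 5.60 and 5.50. The near-identical Hba-a1 and Hba-a2 share fragments, so that Hba-a2 alone (10.31) is uncertain: their sum was 3167 FPKM in T+ cells, 30.2 FPKM in T+ Sox2+ cells and 43.2 FPKM in Sox2+ cells (6.16). The red cell programme beyond globins was also higher in T+ cells. Slc4a1, the anion exchanger of the red cell membrane, was at 63.8 FPKM in T+ cells, 0.576 FPKM in T+ Sox2+ cells and 0.869 FPKM in Sox2+ cells (5.12). Alas2, the erythroid enzyme that starts haem synthesis, was at 30.7 FPKM in T+ cells, 0.716 FPKM in T+ Sox2+ cells and 0.488 FPKM in Sox2+ cells (4.41), and Gata1 and Klf1, the transcription factors of red cell genes, differed by 3.30 and 3.06. Hemgn, a nuclear protein of blood precursors, differed by 3.91. The haem enzymes Urod and Ppox, used in every cell, lay within 2-fold (0.87 and 0.88). The globin share in T+ cells of the knockout table was 0.217% at TS12 and 0.528% at TS13, between the T+ and the Sox2+ fraction.

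The promoters of Hba-x, Hbb-y and Alas2 are shown as examples of red blood cell genes, which include the largest single differences. The sequences are RefSeq, build GRCm38.p6, 250 bases before to 50 after the start, of Hba-x (chr11:32276350-32276649, plus strand), Hbb-y (chr7:103853158-103853457, minus strand) and Alas2 (chrX:150547167-150547466, plus strand). Capitals mark, on either strand, the TATA box letters TATAAA, the GATA factor motif AGATAA and the CACC box CCACCC, which is the core of the Klf1 motif.
Hba-x: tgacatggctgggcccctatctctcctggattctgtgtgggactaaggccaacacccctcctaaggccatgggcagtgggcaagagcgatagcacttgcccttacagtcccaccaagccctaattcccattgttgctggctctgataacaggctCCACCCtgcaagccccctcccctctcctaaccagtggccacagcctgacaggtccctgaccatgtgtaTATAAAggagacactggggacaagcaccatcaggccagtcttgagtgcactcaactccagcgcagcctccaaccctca
Hbb-y: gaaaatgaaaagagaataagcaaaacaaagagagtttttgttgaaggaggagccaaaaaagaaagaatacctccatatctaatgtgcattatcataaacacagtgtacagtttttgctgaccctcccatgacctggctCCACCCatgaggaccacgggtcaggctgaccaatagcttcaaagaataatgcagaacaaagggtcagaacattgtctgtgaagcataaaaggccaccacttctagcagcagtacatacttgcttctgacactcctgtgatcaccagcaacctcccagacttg
Alas2: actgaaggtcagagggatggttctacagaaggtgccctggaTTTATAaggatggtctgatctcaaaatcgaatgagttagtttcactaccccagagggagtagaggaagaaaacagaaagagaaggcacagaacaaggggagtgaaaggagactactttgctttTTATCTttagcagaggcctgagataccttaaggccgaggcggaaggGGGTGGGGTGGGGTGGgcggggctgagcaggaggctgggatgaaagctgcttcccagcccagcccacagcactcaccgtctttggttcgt
All 3 promoters hold CCACCC, and Alas2 also holds AGATAA. Other forms of the GATA motif were not searched or marked. Of these, Hba-x holds TGATAA, and Hbb-y holds its reverse complement TTATCA. Of the 14 red cell genes with a promoter in the table, 9 held CCACCC, 5 AGATAA and 2 TATAAA. Over all genes compared the shares were 35.5%, 5.40% and 6.01%. The red cell promoters were poor in CpG: 8 of 14 held 5 or fewer CG dinucleotides in 300 bases, against 4.00% of the genes compared and 43.6% of all promoters in the table.

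Vessel and blood precursor genes were higher in T+ cells in all 14 members compared, with a median of 2.31. Cdh5, the cadherin of endothelial junctions, was at 14.5 FPKM in T+ cells, 0.205 FPKM in T+ Sox2+ cells and 1.11 FPKM in Sox2+ cells (2.88), and Kdr, the VEGF receptor of vessel precursors, at 8.77 FPKM in T+ cells, 1.06 FPKM in T+ Sox2+ cells and 0.340 FPKM in Sox2+ cells (2.87). Tal1, a bHLH factor of blood and vessel precursors, differed by 3.20. Lmo2, a bridging factor of the same programme, stood out by its level in the other fractions, with 83.0 FPKM in T+ cells, 57.6 FPKM in T+ Sox2+ cells and 16.1 FPKM in Sox2+ cells (2.29). Of the 31 genes on the list 17 lay under the minimum level.

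Neural progenitor factors were lower in T+ cells. Of 11 compared, 6 were at least 2-fold lower and 1 higher, and the median was -1.54. Sox1, the SoxB1 factor that marks neural commitment, was at 0.180 FPKM in T+ cells, 5.28 FPKM in T+ Sox2+ cells and 28.3 FPKM in Sox2+ cells (-4.64). Its relative Sox3, of neural and epiblast cells, was at 0.403 FPKM in T+ cells, 6.61 FPKM in T+ Sox2+ cells and 31.1 FPKM in Sox2+ cells (-4.51). Zic2 and Zic5, zinc finger factors of the neural plate and dorsal neural tube, were at -2.83 and -3.02. Both SoxB1 genes were under 1 FPKM in T+ cells, intermediate in T+ Sox2+ cells and highest in Sox2+ cells. Ebf2, a factor of mesenchymal and neural cells, was the member higher in T+ cells, at 9.86 FPKM in T+ cells, 6.28 FPKM in T+ Sox2+ cells and 1.47 FPKM in Sox2+ cells (2.14). Among neural tube patterning factors 5 of 6 were lower in T+ cells (median -1.75). Nkx2-9, of the ventral neural tube, was at 0.0276 FPKM in T+ cells, 0.479 FPKM in T+ Sox2+ cells and 11.8 FPKM in Sox2+ cells (-3.64), and Olig3, of dorsal progenitors, at 0.0168 FPKM in T+ cells, 0.436 FPKM in T+ Sox2+ cells and 7.26 FPKM in Sox2+ cells (-3.02). Pax6, of spinal cord progenitors, stood at -1.62, and Msx2, a BMP target in dorsal neural tube and mesoderm, was higher in T+ cells (1.22). With no minimum level the medians were -0.67 for neural progenitor factors and -0.16 for patterning factors.

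Among structural genes of neural progenitors 4 of 14 were lower in T+ cells and 1 higher, with a median of -0.32. Lrp2 (megalin), an endocytic receptor of neuroepithelium, differed by -3.37, Tubb3, the neuronal tubulin, by -2.26 and Ncam1, a neural cell adhesion molecule, by -1.71. Nes and Cdh2, used by many progenitors, lay within 2-fold (-0.22 and -0.29), and vimentin (Vim), an intermediate filament also of mesenchyme, was at 188 FPKM in T+ cells, 125 FPKM in T+ Sox2+ cells and 88.2 FPKM in Sox2+ cells (1.08). The Sox family split by type. Of the 8 Sox factors compared besides Sox2, the SoxB1 genes and Sox13 (-1.23) were lower, Sox7 and Sox18, of vessels, were higher (2.34 and 2.22), and the SoxC genes Sox4, Sox11 and Sox12 lay within 2-fold.

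Axial progenitor genes, which mark the caudal epiblast and the progenitors it holds, were lower in T+ cells: 8 of 19 were 2-fold or more lower and none higher, all 19 differences were below 0, and the median was -1.0. The homeobox gene Nkx1-2, a marker of the caudal progenitor pool, had 1.00 FPKM in T+ cells, 25.8 FPKM in T+ Sox2+ cells and 56.3 FPKM in Sox2+ cells (-4.84). Hes3, a Hes repressor of progenitors, was at 0.208 FPKM in T+ cells, 5.24 FPKM in T+ Sox2+ cells and 45.7 FPKM in Sox2+ cells (-5.27). Cyp26a1, which clears retinoic acid from the tail end, was at 23.9 FPKM in T+ cells, 184 FPKM in T+ Sox2+ cells and 140 FPKM in Sox2+ cells (-2.51). Hes3 and Nkx1-2 were thus at about 1 FPKM or less in T+ cells, while Cyp26a1 was lower there but well above the minimum level. Fgf17, a ligand of the Fgf8 subfamily, was at 19.2 FPKM in T+ cells, 90.3 FPKM in T+ Sox2+ cells and 103 FPKM in Sox2+ cells (-2.37), and the caudal homeobox factor Cdx2 at 22.5 FPKM in T+ cells, 108 FPKM in T+ Sox2+ cells and 94.2 FPKM in Sox2+ cells (-2.02). Most of these genes were thus about as high in the double-positive as in Sox2+ cells, with Hes3 and Nkx1-2 highest in Sox2+ cells. The signals Fgf8 and Wnt3a differed less than Fgf17. Fgf8 was at 20.9 FPKM in T+ cells, 78.8 FPKM in T+ Sox2+ cells and 45.1 FPKM in Sox2+ cells (-1.08), and Wnt3a at 9.62 FPKM in T+ cells, 38.2 FPKM in T+ Sox2+ cells and 16.3 FPKM in Sox2+ cells (-0.70). Lin28a, an RNA-binding factor of immature cells, was at -0.87 and Evx1, a homeobox factor of the streak, at -0.53. In the WT T+ library of the knockout table at TS12, Nkx1-2 had a percentile rank of 82.0, against 8.06 in the T+ fraction and 89.3 in the Sox2+ fraction, and Hes3 of 15.3, against 1.70 and 86.2.

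The promoters of Sox1 and Nkx1-2 are shown beside those of the red cell genes for their CpG content. They are RefSeq sequences of build GRCm38.p6 over the same window, of Sox1 (chr8:12395269-12395568, plus strand) and Nkx1-2 (chr7:132599588-132599887, minus strand), with every CG in capitals.
Sox1: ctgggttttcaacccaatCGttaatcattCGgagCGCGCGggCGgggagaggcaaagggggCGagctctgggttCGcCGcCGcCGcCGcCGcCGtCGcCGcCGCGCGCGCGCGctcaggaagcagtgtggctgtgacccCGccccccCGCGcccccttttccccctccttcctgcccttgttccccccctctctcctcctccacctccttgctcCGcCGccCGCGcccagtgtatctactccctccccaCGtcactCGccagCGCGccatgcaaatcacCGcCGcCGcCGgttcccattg
Nkx1-2: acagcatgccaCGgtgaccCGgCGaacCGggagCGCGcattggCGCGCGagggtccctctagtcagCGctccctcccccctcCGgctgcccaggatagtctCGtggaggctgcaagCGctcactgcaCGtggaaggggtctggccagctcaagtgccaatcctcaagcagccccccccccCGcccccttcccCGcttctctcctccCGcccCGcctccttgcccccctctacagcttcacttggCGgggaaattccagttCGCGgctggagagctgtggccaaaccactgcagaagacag
Sox1 held 37 CG and Nkx1-2 held 21, against 2 in Hba-x, 1 in Hbb-y and 6 in Alas2. The median was 17 over the 215 genes higher in T+ cells that had a promoter in the table, 21 over the 195 lower ones and 23 over the 6476 genes compared. Promoters with 5 or fewer CG made up 16.3% of the higher and 5.64% of the lower genes, against 4.00% of all compared, and 13.1% of the higher genes when red cell and vessel lists were left out. TATAAA stood in 14.0% of the promoters of higher genes and 7.69% of those of lower genes, against 6.01% of all compared. CCACCC stood in 52.6% of higher and 39.5% of lower genes, against 35.5%, and AGATAA in 10.2% of higher and 3.59% of lower genes, against 5.40%. GGTGTG, the core of the T-box motif, stood in 19.5% of higher and 17.4% of lower genes, against 16.4%. ACAAAG, the core of the Sox motif, stood in 13.5% of higher and 13.8% of lower genes, against 12.8%. All motifs were searched on both strands.

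**Figure D3:**
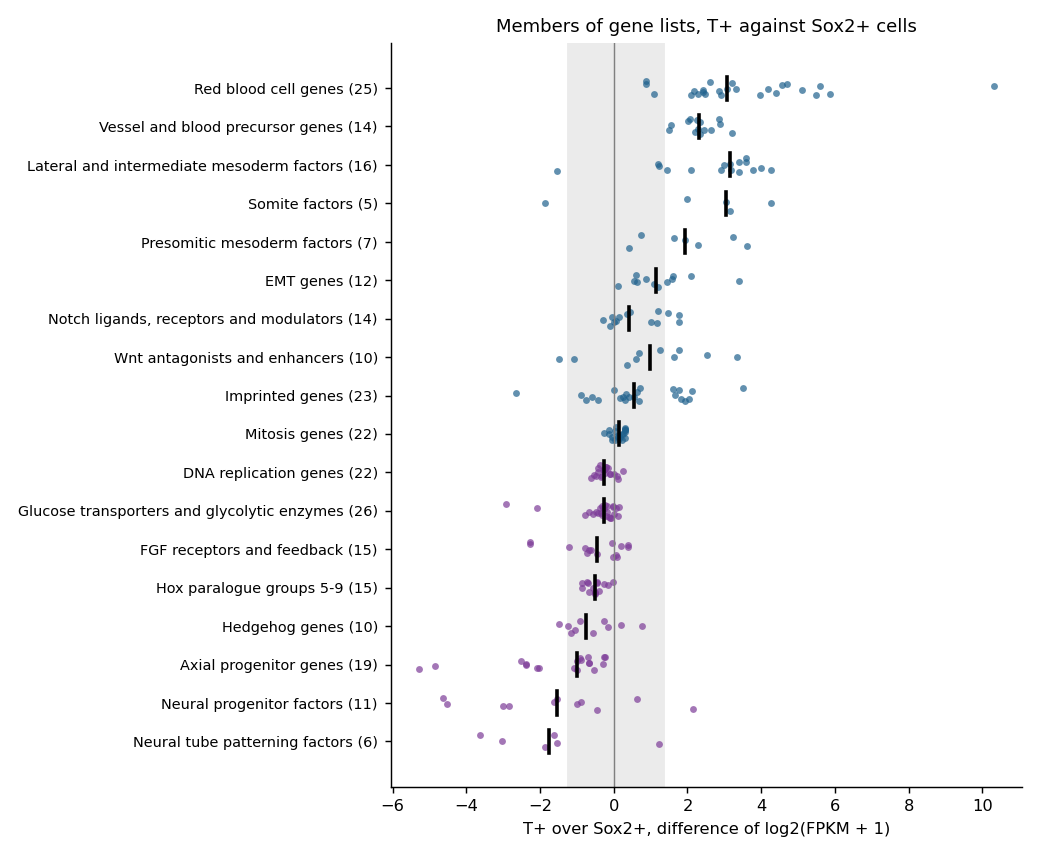
Difference of log2(FPKM + 1), T+ over Sox2+ cells, for members of selected gene lists (1 point per gene compared, number of genes in brackets), with the list's median as a black bar and the central 95% of all genes compared, from -1.23 to 1.37, as a grey band. Medians run from 3.17 for lateral and intermediate mesoderm factors to -1.75 for neural tube patterning factors.

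Hox genes, which give cells their position along the body axis, were slightly lower in T+ cells in most members, with a single large exception. Of 33 compared, 28 lay below 0, with a median of -0.39. Only Hoxc4 (-1.12) and Hoxd13 (2.83) passed 2-fold. All 15 members of paralogue groups 5 to 9 lay below 0 (median -0.50), from -0.87 for Hoxc6 to -0.02 for Hoxd8, which comes to lie above 0 when globins are left out of the scaling. The HoxA, HoxB and HoxC clusters had medians of -0.44, -0.27 and -0.53, and the HoxD cluster 0.01. Hoxd13, the most posterior HoxD gene, was at 18.2 FPKM in T+ cells, 4.74 FPKM in T+ Sox2+ cells and 1.69 FPKM in Sox2+ cells. Hoxd11 (0.51) and Hoxd10 (-0.09), of the same cluster, lay within 2-fold. The fractions stood apart from the knockout table in posterior Hox genes, at the same stage label. Members compared of groups 10 to 13 had a median of 30.7 FPKM in the T+ fraction and 1.00 FPKM in WT T+ cells of the knockout table at TS12. For groups 5 to 9 these medians were 27.3 and 16.8 FPKM. The reason was not tested.

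**Figure D4:**
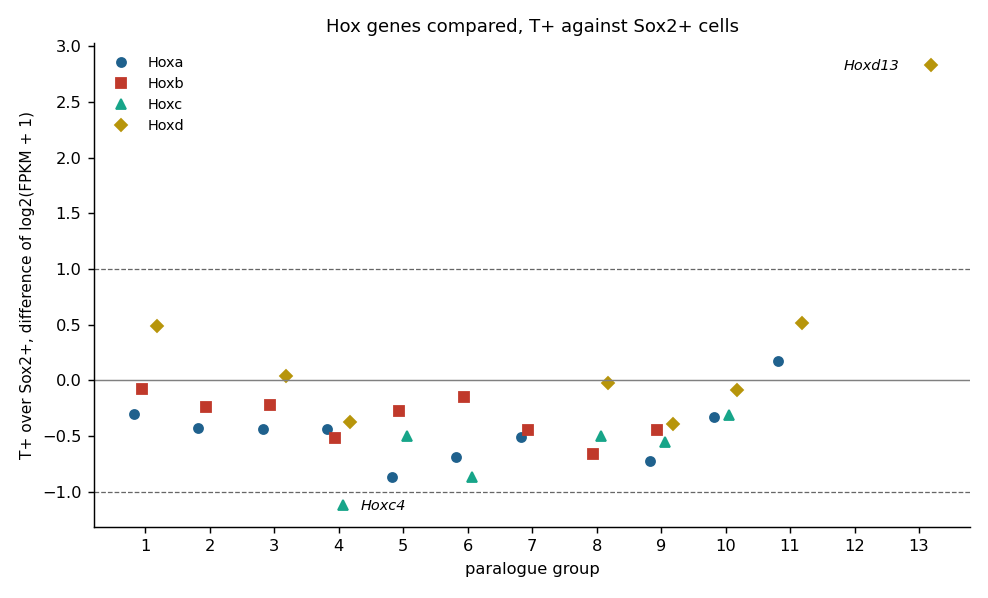
Difference of log2(FPKM + 1), T+ over Sox2+ cells, for the Hox genes compared, by paralogue group and cluster, with dashed lines at 2-fold. Most points lie between -0.87 and 0, and Hoxd13 stands alone at 2.83.

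In the Wnt pathway the 3 ligands compared lay within 2-fold, and the antagonists were mixed. Of 10 antagonists and enhancers 5 were 2-fold or more higher and 2 lower, and the median was 0.97. Nkd2, a cytoplasmic inhibitor induced by Wnt, was at 65.2 FPKM in T+ cells, 34.9 FPKM in T+ Sox2+ cells and 5.56 FPKM in Sox2+ cells (3.34). Frzb, a secreted Frizzled decoy, was at 31.6 FPKM in T+ cells, 20.1 FPKM in T+ Sox2+ cells and 4.68 FPKM in Sox2+ cells (2.52), and Dkk1, which blocks the Lrp co-receptors, at 36.4 FPKM in T+ cells, 50.5 FPKM in T+ Sox2+ cells and 9.98 FPKM in Sox2+ cells (1.77). On the other side Sfrp2, another secreted decoy, was at 18 FPKM in T+ cells, 24.3 FPKM in T+ Sox2+ cells and 52.5 FPKM in Sox2+ cells (-1.49), and Notum, an enzyme that inactivates Wnt, stood at -1.07. Among 12 receptors Fzd7 was higher (1.37) and Fzd9 lower (-2.50). Of 12 nuclear effectors and targets 3 were 2-fold or more higher and 2 lower. Their differences ran from -2.09 to 1.65, with a median of 0.03. Of the effectors Lef1 and Tcf7l1 were higher (1.52 and 1.56). Tcf7 (0.20), beta-catenin (Ctnnb1, -0.05) and the pathway's general target Axin2 (0.12) differed little. Lef1 stood at 219 FPKM in T+ cells, 182 FPKM in T+ Sox2+ cells and 75.6 FPKM in Sox2+ cells.

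FGF ligands divided. Fgf17 (-2.37) and Fgf8 (-1.08) were lower in T+ cells and Fgf9 was higher, at 9.34 FPKM in T+ cells, 4.72 FPKM in T+ Sox2+ cells and 1.85 FPKM in Sox2+ cells (1.86). Of 15 receptors and feedback genes none was higher and 3 were lower: Spry1, a feedback inhibitor, at 10.7 FPKM in T+ cells, 19.8 FPKM in T+ Sox2+ cells and 55.6 FPKM in Sox2+ cells (-2.27), its relative Spred3 (-2.27) and the epithelial receptor Fgfr2 (-1.21). The widely used targets Dusp6 (-0.68), Etv4 (-0.03) and Etv5 (-0.62) lay within 2-fold.

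Notch genes leaned to T+ cells, with 6 of 14 past 2-fold upwards, none lower and a median of 0.41. The ligands Dll1 and Dll3 of the segmentation clock differed by 1.78 each, at 95.1 FPKM in T+ cells, 112 FPKM in T+ Sox2+ cells and 27 FPKM in Sox2+ cells for Dll1. The feedback gene Nrarp (1.46), the glycosyltransferase Lfng (1.19) and the receptors Notch1 (1.17) and Notch4 (1.02) made up the rest, and Jag1 was at -0.30. Of the Hes and Hey repressors Hey1 (1.12) and Hey2 (1.47) were higher and Hes3 lower, while Hes1 (-0.44) and Hes7 (0.41) lay within 2-fold.

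Retinoic acid genes showed opposite values for the binding proteins. Crabp1 was at 171 FPKM in T+ cells, 86.9 FPKM in T+ Sox2+ cells and 29.3 FPKM in Sox2+ cells (2.51), and Crabp2 at 83.0 FPKM in T+ cells, 144 FPKM in T+ Sox2+ cells and 215 FPKM in Sox2+ cells (-1.37). Aldh1a2, the enzyme that makes retinoic acid in the trunk, was at 13.0 FPKM in T+ cells, 4.36 FPKM in T+ Sox2+ cells and 7.65 FPKM in Sox2+ cells (0.70). Of 11 genes compared 1 was higher and 2 lower in T+ cells, and the receptors Rara (0.41) and Rarg (-0.46) differed little.

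BMP genes differed mostly in the ligand Bmp4, of lateral and extraembryonic mesoderm, which was at 52.0 FPKM in T+ cells, 11.0 FPKM in T+ Sox2+ cells and 5.21 FPKM in Sox2+ cells (3.09). Of 17 genes 4 were higher: Bmp4, the antagonist Fst (2.56), the pseudoreceptor Bambi (1.29) and the target Id1 (1.04). Gdf10, a ligand of the BMP3 type (-3.19), and Id2 (-1.33) were lower, so the targets Id1 and Id2 lay on opposite sides. Receptors and Smad factors lay within 2-fold. In the Hedgehog pathway 4 of 10 were lower in T+ cells and none higher (median -0.74). They included the transducer Gli2 (-1.49) and the co-receptor Cdon (-1.05). Gli1, a target of the pathway, was at 4.32 FPKM in T+ cells, 6.80 FPKM in T+ Sox2+ cells and 10.9 FPKM in Sox2+ cells (-1.16). The 5 Nodal and activin genes compared lay within 2-fold.

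EMT genes, which take cells from an epithelium into mesenchyme, were above 0 in all 12 members compared, 7 of them at least 2-fold, with a median of 1.14. Twist1, a bHLH factor of mesenchyme, was at 25.8 FPKM in T+ cells, 2.74 FPKM in T+ Sox2+ cells and 1.57 FPKM in Sox2+ cells (3.39). Snai1, the zinc finger repressor that acts at the primitive streak, was at 116 FPKM in T+ cells, 98.2 FPKM in T+ Sox2+ cells and 26.6 FPKM in Sox2+ cells (2.08). Snai1 was thus high already in the double-positive cells and Twist1 was not. Fibronectin (Fn1) was at 445 FPKM in T+ cells, 307 FPKM in T+ Sox2+ cells and 147 FPKM in Sox2+ cells (1.59). Zeb1 and Zeb2, further repressors of epithelial genes, lay within 2-fold (0.55 and 0.11).

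Cadherins lay on both sides, with 4 of 14 higher and 5 lower in T+ cells. Pcdh19, a protocadherin of presomitic mesoderm, was at 33.8 FPKM in T+ cells, 22.8 FPKM in T+ Sox2+ cells and 2.14 FPKM in Sox2+ cells (3.47), and Pcdh8 (Papc), of the forming somite, differed by 2.75. Cdh6, of neuroepithelium and nephron, was at 0.789 FPKM in T+ cells, 4.13 FPKM in T+ Sox2+ cells and 24.4 FPKM in Sox2+ cells (-3.83), and Celsr1, a planar polarity cadherin, at 5.38 FPKM in T+ cells, 16.3 FPKM in T+ Sox2+ cells and 32 FPKM in Sox2+ cells (-2.37). Junction genes had 4 of 11 lower and 2 higher. Grhl3, a factor of surface epithelium, stood at -2.88 and the claudins Cldn6 and Cldn9 at -1.29 and -1.19, but the keratins Krt18 and Krt8 were higher in T+ cells (1.65 and 1.27). Of 22 semaphorin, plexin, neuropilin and Slit genes 6 were lower and 5 higher. Sema3a, a repulsive guidance ligand, was at 1.01 FPKM in T+ cells, 11.2 FPKM in T+ Sox2+ cells and 43 FPKM in Sox2+ cells (-4.45), and Sema3e stood at -3.05. The plexin receptors Plxna2 and Plxnd1 were higher (2.2 and 1.88), and the neuropilins were split between Nrp2 (-1.79) and Nrp1 (1.37). Of matrix genes Nid1 (2.25) of the basement membrane, Lama1 (1.56) and the collagens Col4a1 and Col4a2 (1.21 and 1.29) were higher, and Itga6 (-1.59), a laminin receptor, and Col2a1 (-2.02) lower.

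Glucose transporters stood out among metabolic genes. Slc2a3 was at 54.6 FPKM in T+ cells, 205 FPKM in T+ Sox2+ cells and 421 FPKM in Sox2+ cells (-2.92), and Slc2a1 at 112 FPKM in T+ cells, 192 FPKM in T+ Sox2+ cells and 474 FPKM in Sox2+ cells (-2.07). The other 24 of 26 genes of glucose uptake and glycolysis lay within 2-fold, for example Ldha at -0.09, Pgk1 at -0.36 and Hk2 at -0.24, and the list's median was -0.26. Mitosis genes (median 0.15) and DNA replication genes (-0.26) each had 22 members compared and none past 2-fold. In cell cycle control Ccnd1 (-1.01) and Mycl (-1.55) were lower and Gadd45g, a growth arrest gene, was higher (2.54). Pmaip1 (Noxa), which induces apoptosis, was at 1.62 FPKM in T+ cells, 20.5 FPKM in T+ Sox2+ cells and 50.8 FPKM in Sox2+ cells (-4.31). Of other p53 targets Bax (-0.11), Mdm2 (-0.12) and Cdkn1a (-0.39) lay within 2-fold, as did Trp53 itself (0.01). Gadd45a was 2-fold or more lower in T+ cells, and Btg2 was higher (1.85). Of 14 heat shock and immediate early genes, which respond to dissociation, only Btg2 differed (1.85).

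Metallothioneins, which bind zinc and other metals, were higher in T+ cells. Mt2 was at 57.7 FPKM in T+ cells, 0.386 FPKM in T+ Sox2+ cells and 1.32 FPKM in Sox2+ cells (4.66), and Mt1 at 101 FPKM in T+ cells, 2.69 FPKM in T+ Sox2+ cells and 6.65 FPKM in Sox2+ cells (3.74). The importer Slc39a8 (Zip8) was at 21.4 FPKM in T+ cells, 2.17 FPKM in T+ Sox2+ cells and 2.48 FPKM in Sox2+ cells (2.69). The T+ fraction alone was high, as for red cell markers, whose summed level was 52.1-fold higher in T+ cells; their part in this result was not tested. In WT T+ cells of the knockout table Mt2 was at 0.901 FPKM at TS12 and 13.4 FPKM at TS13. The promoter of Mt2 is shown for its metal response elements (RefSeq, build GRCm38.p6, chr8:94172368-94172667, plus strand), with TGCACNC or TGCGCNC in capitals on either strand.
Mt2: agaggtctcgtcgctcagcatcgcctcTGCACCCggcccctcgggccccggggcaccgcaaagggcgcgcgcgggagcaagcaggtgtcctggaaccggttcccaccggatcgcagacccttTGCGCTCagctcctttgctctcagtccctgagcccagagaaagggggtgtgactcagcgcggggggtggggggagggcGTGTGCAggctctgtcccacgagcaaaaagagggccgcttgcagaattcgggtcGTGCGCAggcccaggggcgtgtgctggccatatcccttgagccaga
It holds 4 matches. At least 1 match stood in 38.2% of the promoters of all genes compared, in 35.8% of those of higher genes and in 39.5% of those of lower genes.

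Imprinted genes leaned to T+ cells, with 8 of 23 at least 2-fold higher and 1 lower (median 0.56). Igf2, a paternally expressed growth factor, was at 2148 FPKM in T+ cells, 759 FPKM in T+ Sox2+ cells and 489 FPKM in Sox2+ cells (2.13), and Igf2r, the maternally expressed receptor that clears it, at 52.9 FPKM in T+ cells, 25.3 FPKM in T+ Sox2+ cells and 16.1 FPKM in Sox2+ cells (1.66). Airn lies antisense to Igf2r, and whether strand was used in counting is not given in the sources used here, so its value (1.61) is uncertain. Dlk1 (2.05), Peg10 (1.93), H19 (1.82) and Peg3 (1.78) were also higher. Plagl1 (Zac1), a zinc finger factor, was the member lower in T+ cells, at 29 FPKM in T+ cells, 46.3 FPKM in T+ Sox2+ cells and 188 FPKM in Sox2+ cells (-2.66). Genes of both parental kinds thus stood on the T+ side. Red cell, vessel and lateral mesoderm markers were also higher in that library, and their part in the levels of these genes was not tested.

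The 307 and 272 genes were then read in libraries that the comparison did not use. In WT T+ cells of the knockout table at TS12, the 307 genes higher in T+ cells had a median percentile rank of 37.8, against 57.2 in the T+ fraction, 35.8 in the T+ Sox2+ fraction and 21.2 in the Sox2+ fraction. The 272 genes lower in T+ cells had a median rank of 31.8 in that library, against 24.2 in the T+ fraction, 39.7 in the T+ Sox2+ fraction and 57.3 in the Sox2+ fraction. In that library 135 of the 307 higher genes had a rank nearer to that of the T+ than of the Sox2+ fraction, or 43.97%, as had 181 of the 272 lower genes, or 66.5%. Of the genes within 2-fold it was 47.8%. The ranks in the T+ and Sox2+ fractions were set apart by the choice of the genes, so that a rank between them in another library is no result about it. Library kit, cell number, table and the levels of posterior Hox genes also differ between these libraries, and their part was not tested.

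In single T+ Sox2+ cells of TS13, several genes of both extremes were found in few cells, and lateral mesoderm factors ranged widely. T was at 1 FPKM or more in 53 of 53 cells (median 311 FPKM) and Sox2 in 46 (median 21.2 FPKM). Among genes lower in T+ cells, Sox1 reached 1 FPKM in 5 cells, Nkx1-2 in 12, Hes3 in 17 and Sox3 in 22. Among genes higher in T+ cells, Meox1 reached it in 4 cells, Msgn1 in 15, Osr1 in 34 and Hand1 in 36. Foxf1 and Tbx6 reached it in 46 cells each, with medians of 40.9 FPKM for Foxf1 and 22.4 FPKM for Tbx6. Of the other lateral factors, Hand2 and Pitx1 reached 1 FPKM in 21 cells each, Tbx4 in 19 and Prrx1 in 11. Hba-x, Hbb-y and Slc4a1 were at 0 in all 53 cells, which allows a share of up to 5.66% of cells with detected transcripts. The depth of each cell is unknown, and the labelled stage is later than that of the fractions. Hoxc10 reached 1 FPKM in 6 of 53 cells (median 0 FPKM), against 280 FPKM in the T+ Sox2+ fraction.

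T KO cells gave a readout that shares no library with the comparison of fractions. T KO T+ cells were set against WT T+ cells for genes with at least 5 FPKM in either, of which 0.991% were higher by 2-fold or more and 1.02% lower in T KO cells at TS12, and 1.11% higher and 1.50% lower at TS13. Of the 307 genes on the T+ side, 179 could be read at TS12, and 31 were lower and 5 higher in T KO cells, with a median of -0.41 beside 0.03 for all genes. At TS13 it was 43 lower and 5 higher of 191, with a median of -0.53 beside -0.04. Of the 272 genes on the Sox2+ side, 22 of 160 were higher and 2 lower in T KO cells at TS12 (median 0.51), and 44 of 185 higher and 4 lower at TS13 (median 0.49). Without the red cell, vessel and imprinted lists the medians at TS12 were -0.42 and 0.49. Each genotype and stage is 1 library, and T KO and WT embryos differ in the strain label too, so genotype and strain cannot be told apart.

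Presomitic Msgn1, Arg1 and H19 were among the members of the T+ side that were lowest in T KO cells. Msgn1 was at 3.48 FPKM in T KO cells and 56.9 FPKM in WT cells at TS12, and at 1.18 FPKM in T KO cells and 42.5 FPKM in WT cells at TS13. Arg1, an arginase that was at 10.7 FPKM in T+ cells, 5.87 FPKM in T+ Sox2+ cells and 0.853 FPKM in Sox2+ cells (2.66), was at 0.358 FPKM in T KO cells and 27.6 FPKM in WT cells at TS12. H19, the maternally expressed RNA beside Igf2, was at 7.95 FPKM in T KO cells and 338 FPKM in WT cells at TS12. Msgn1, Arg1 and H19 were lower in T KO cells by more than 8-fold on this scale at TS12. Igf2, also on the T+ side, differed the other way but within 2-fold. It was at 287 FPKM in T KO cells and 185 FPKM in WT cells at TS12, and at 367 and 262 FPKM at TS13. Among genes of the Sox2+ side, Hes3 was at 9.13 FPKM in T KO cells and 1.62 FPKM in WT cells at TS12, and at 30.1 FPKM in T KO cells and 2.35 FPKM in WT cells at TS13. At TS13 the level of Sox1 was 9.98 FPKM in T KO cells and 0.569 FPKM in WT cells. The lateral factors were mixed: Foxf1 was lower in T KO cells (-1.11 at TS12 and -1.37 at TS13), while Hand1 and Hand2 lay within 2-fold at TS12 (0.02 and -0.08). Cyp26a1 went against its set, at 11.5 FPKM in T KO cells and 45.1 FPKM in WT cells at TS12 and at 6.12 FPKM in T KO cells and 77.6 FPKM in WT cells at TS13. Fgf8 did so at TS13, at 4.49 FPKM in T KO cells and 30.1 FPKM in WT cells.

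**Figure D5:**
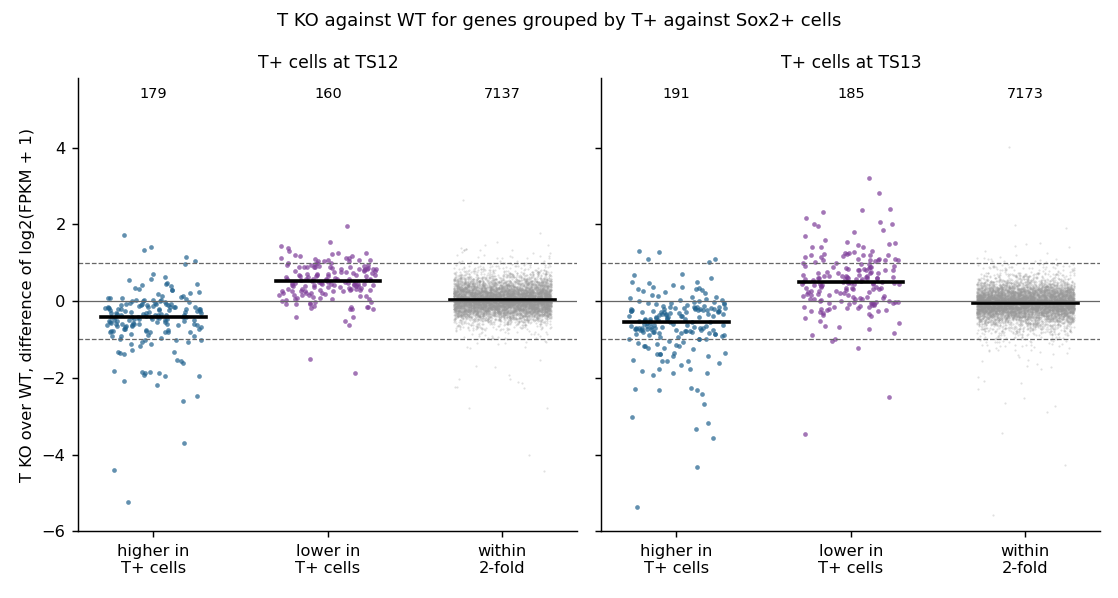
Difference of log2(FPKM + 1), T KO over WT T+ cells, at TS12 and TS13, for genes that were 2-fold or more higher in T+ cells than in Sox2+ cells, as much lower, or within 2-fold (1 point per gene, number of genes at the top, median as a black bar, dashed lines at 2-fold). The median is -0.41 at TS12 and -0.53 at TS13 for the higher genes, and 0.51 and 0.49 for the lower genes.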

How the data were processed

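The values are FPKM per gene symbol, as deposited by the authors, in 1 table of the sorted fractions, 1 knockout table and 1 table of 53 cells. The submitters' processing notes name Cufflinks 2.2.1 and Cuffdiff, TopHat2 2.1.0 and Bowtie 1.1.2, SAMtools, Picard 1.103, bedtools 2.23.0 and the build mm10. Their roles and the annotation are not stated. Per the labels' protocols, libraries of the fractions used the TotalScript kit with random hexamers, actinomycin D and 14 cycles of amplification, and those of the knockout table another kit and about 20000 cells. Tables were taken as normalised separately, and differences were made within a table only.

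Of 23983 symbols 19777 were kept. Differences are of log2(FPKM + 1). Depth was estimated from FPKM times gene length: 15.0% to 17.2% of low genes in the 3 fractions lay within a relative tolerance of 0.0003 of a whole number of fragments, up to 15. Symbols were matched to RefSeq promoter sequences of GRCm38.p6. Samples were grouped by their labels. Alternatives were other pseudocounts, other minimum levels, 3 rescalings and all symbols kept. Percentile ranks are among kept symbols with at least 1 FPKM in any of the 5 libraries ranked.

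Genes named are T and Sox2, the 15 highest and 15 lowest differences, and of each list up to 5 members with the largest difference, those against the list's direction and small families in full. Other members named were chosen after their values were seen. Some members that this rule would name are not reported here. The genes, the 53 lists and the rules were chosen with earlier results of these data known. Calculations were made in Python 3.11.15 with pandas 2.3.3 and numpy 2.4.6, tested on simulated data, and drawn with matplotlib 3.10.9.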

Additional observations from a re-analysis of the deposited data

How the results depend on the processing

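The count of genes past 2-fold, 307 higher and 272 lower in T+ cells, depended on the pseudocount and on the minimum level. It was 187 and 153 with a pseudocount of 5, 111 and 95 with a minimum of 20 FPKM, and 506 and 421 with no minimum. With a pseudocount of 0.1, with any of the 3 rescalings or with all symbols kept, it stayed between 301 and 336 higher and between 258 and 310 lower. The rescalings moved all differences by 0.05 or less. Of 52 list medians, none changed sign with another pseudocount, which cannot turn the sign of any single gene. With a minimum of 20 FPKM 5 of 51 did, with no minimum 8 and under a rescaling 1 to 3. Surface ectoderm and neural crest genes, which had medians past 2-fold, turned to -0.48 and -0.16 with no minimum, when they hold more low genes. With a pseudocount of 5 the medians of neural progenitor factors and EMT genes were -0.89 and 0.73, and T-box factors stood at 0.89 with a minimum of 20 FPKM. Of 197 named genes past 2-fold, 156 stayed so with a pseudocount of 5 and at least 193 under each rescaling. None of them changed sign, but these settings could not have changed it. A pseudocount cannot turn a sign, and shifts of 0.05 or less cannot turn that of a gene past 2-fold.

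No paired analysis was possible because each fraction is 1 library. Leaving out a replicate was not possible for the same reason. Depth limits genes under about 1 FPKM, whose fragments are few, and there the size of a fold depends on the pseudocount.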

Other observations

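The adult beta globins Hbb-b2 and Hbb-bs were among the 15 genes highest in T+ cells and share near-identical sequence with Hbb-b1, which was below the minimum level. The sum of these 3 genes was 51.8 FPKM in T+ cells, 6.32 FPKM in T+ Sox2+ cells and 0.605 FPKM in Sox2+ cells (5.04). The sum over Csf2rb and Csf2rb2, receptor chains of blood cells, was 25.6 FPKM in T+ cells, 0.337 FPKM in T+ Sox2+ cells and 0.588 FPKM in Sox2+ cells (4.06). Amd2 alone was at -2.33, but summed with its near-identical copy Amd1, another gene of polyamine synthesis, the level was 78.5 FPKM in T+ cells and 82.1 FPKM in Sox2+ cells (-0.06). The same held for Rps27 and Rps27rt, at 802 FPKM in T+ cells and 972 FPKM in Sox2+ cells (-0.28).

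Ndufs5, a subunit of the respiratory chain, was listed at 0.00101 FPKM in T+ cells, 0.000762 FPKM in T+ Sox2+ cells and 5.68 FPKM in Sox2+ cells, while WT T+ cells of the knockout table had 68.4 FPKM at TS12. It was the member lower in T+ cells among 79 genes of oxidative phosphorylation.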
